A study of Mus musculus with 10 samples.

Results

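Metallothioneins and genes of iron handling were followed in the kidneys of old mice after long-term calorie restriction. A list of 10 genes was taken: the metallothioneins Mt1 and Mt2, the transferrin receptor Tfrc, the ferritin chains Fth1 and Ftl1, the iron transporters Slc40a1 and Slc11a2, the ferroxidase Cp, the iron sensor partner Hfe and the iron regulatory protein Aco1. Every probe set whose annotation gave exactly 1 of these symbols was used, which gave 30 of the 45101 probe sets on the array. They stand for 9 of the 10 genes, and the array names 18194 genes in this way. The 3 probe sets that carry the symbol Ftl1 also carry that of the pseudogene Ftl1-ps2, so no value is given for the ferritin light chain. The study set 5 male C57BL/6 mice under long-term calorie restriction against 5 male C57BL/6 mice on a control diet. All mice were 30 months old, and each kidney was measured on its own Affymetrix array. How severe the restriction was, when it began and when the mice last ate are not stated in the labels used here.

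Cells take up iron bound to transferrin through Tfrc, store it inside a shell of Fth1 and Ftl1 chains, and release it through ferroportin, the product of Slc40a1. When iron is scarce, the proteins encoded by Aco1 and Ireb2 bind short RNA hairpins called iron-responsive elements, which stabilises Tfrc mRNA and blocks translation of ferritin mRNA, so the mRNA level of a ferritin chain need not follow its protein. In the kidney, filtered iron and transferrin are reabsorbed by the proximal tubule. Metallothioneins are small cysteine-rich proteins that bind zinc, copper and cadmium, and their genes are switched on by metals through the factor MTF1 and by glucocorticoids.

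Mt1 and Mt2 lie beside each other on chromosome 8, next to Mt3 and Mt4. The windows around the starts of Mt1 and Mt2 are shown because this pair had the highest Pearson correlation of signals across mice among the listed genes. That correlation did not pass (permutation p adjusted over 36 pairs = 0.104), as described with the metallothionein values. Whether these sequences have a part in it was not tested. The windows run from 250 bases before to 50 after a RefSeq transcript start on GRCm38.p6. Capitals mark the core of the metal response element, TGCACNC or TGCGCNC, searched on both strands with overlaps allowed.
Mt1, chr8:94178839-94179138, plus strand: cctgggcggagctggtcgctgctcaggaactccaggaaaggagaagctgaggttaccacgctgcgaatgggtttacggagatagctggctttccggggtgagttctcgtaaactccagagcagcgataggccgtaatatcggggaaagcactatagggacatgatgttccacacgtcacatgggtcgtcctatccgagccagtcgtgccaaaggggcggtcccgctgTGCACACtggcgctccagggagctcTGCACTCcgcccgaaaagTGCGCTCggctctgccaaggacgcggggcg
Mt2, chr8:94172368-94172667, plus strand: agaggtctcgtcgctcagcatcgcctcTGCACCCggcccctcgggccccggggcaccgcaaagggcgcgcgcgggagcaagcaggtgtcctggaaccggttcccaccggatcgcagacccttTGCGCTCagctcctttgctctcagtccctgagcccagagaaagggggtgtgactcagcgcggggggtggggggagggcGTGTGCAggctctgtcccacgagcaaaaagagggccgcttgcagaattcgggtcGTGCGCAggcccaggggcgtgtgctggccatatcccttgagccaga

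The Mt1 window held 3 such cores, beginning at -23, 3 and 21 relative to the RefSeq start, and the Mt2 window 4, at -223, -128, -50 and 5. Whether kidney transcripts begin at these RefSeq starts was not tested. Of all 32851 windows in the RefSeq table, 25.7% held at least 1 core, 1.97% at least 3 and 0.517% at least 4. Windows were given for 8 of the 10 listed genes, 11 in all, and 4 of these held a core: those of Mt1, Mt2 and Aco1 and 1 of the Tfrc windows. A match of these letters is a description of the sequence and not a shown binding site.

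Each array gave a MAS5 signal for every probe set, an intensity on a linear scale that the authors had levelled to a common trimmed mean. The mean 3'/5' ratio of the Gapdh and Actb control probe sets, which is higher when RNA is shorter or labelling less complete, averaged 1.67 ± 0.46 on the log2 scale in calorie-restricted kidney and 1.05 ± 0.26 in control kidney (SD, n = 5 each, 2-sided exact permutation p = 0.0476). Calorie-restricted replicates 1, 2 and 3, at 1.75 to 2.21, stood above every control, and results are therefore also given for replicates 4 and 5. Markers of kidney cells were bright in both groups: the thick limb gene Umod averaged 31542 signal units in calorie-restricted and 25838 in control kidney. Among 8 proximal tubule markers 6 were called higher, or 2 after quantile normalization. Of all genes 3.08% were called higher in the deposited values. The summed signal of the 8 markers was 142526 to 168380.0 in calorie-restricted and 97260.1 to 122652 in control kidney. These markers were bright. Of tested probe sets with a mean log2 signal of 12 to 14, 10.9% were called higher, and of those at 14 or above, 50.2%. The part of brightness in the marker values was not tested. In whole tissue, the number of cells of a type and the RNA per cell cannot be told apart.

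Of the 30 probe sets, 23 of 9 genes were bright enough to be tested, 4 were too dim and 3 were control probe sets. Ceruloplasmin, Cp, was lower in calorie-restricted kidney by 4 of its 7 tested probe sets, its brightest not among them. After quantile normalization 2 of the 7 were called. Ferritin heavy chain, Fth1, was higher in the deposited values though not after quantile normalization. No probe set of Mt1, Mt2, Tfrc, Slc40a1, Slc11a2, Hfe or Aco1 was called. With p-values from limma adjusted by Benjamini and Hochberg's method across the 22519 probe sets tested, at a threshold of 0.05, 1 of the 23 was called higher and 4 were called lower. Of all tested probe sets 6.09% were called, 2.93% higher and 3.16% lower. The 4 lower calls all belong to Cp, so these are not separate genes. Counted by the brightest probe set of each gene, 1 of 9 was called, where the background over 12196 genes was 6.1%, with 3.08% higher and 3.02% lower.

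The groups did not overlap in 4 of the 23 probe sets, where the background was 7.12% in all, 3.67% higher and 3.45% lower. The median log2 difference was -0.038 over the 23 and -8.12e-06 over all tested probe sets, and the median size of a difference was 0.202 for these members and 0.204 for all tested probe sets. Of the 23, 12 had an unadjusted p under 0.05, where the background was 26.1%. These 12 belong to Cp, Fth1, Slc40a1 and Aco1 only, 6 of them to Cp, and the 4 that did not overlap belong to Cp and Fth1. Neither count is therefore one of separate genes. Probe sets of a gene are numbered from the brightest. All differences are on the log2 scale, calorie restricted minus control, with the limma standard error and n = 5 per group.

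**Figure D1:**
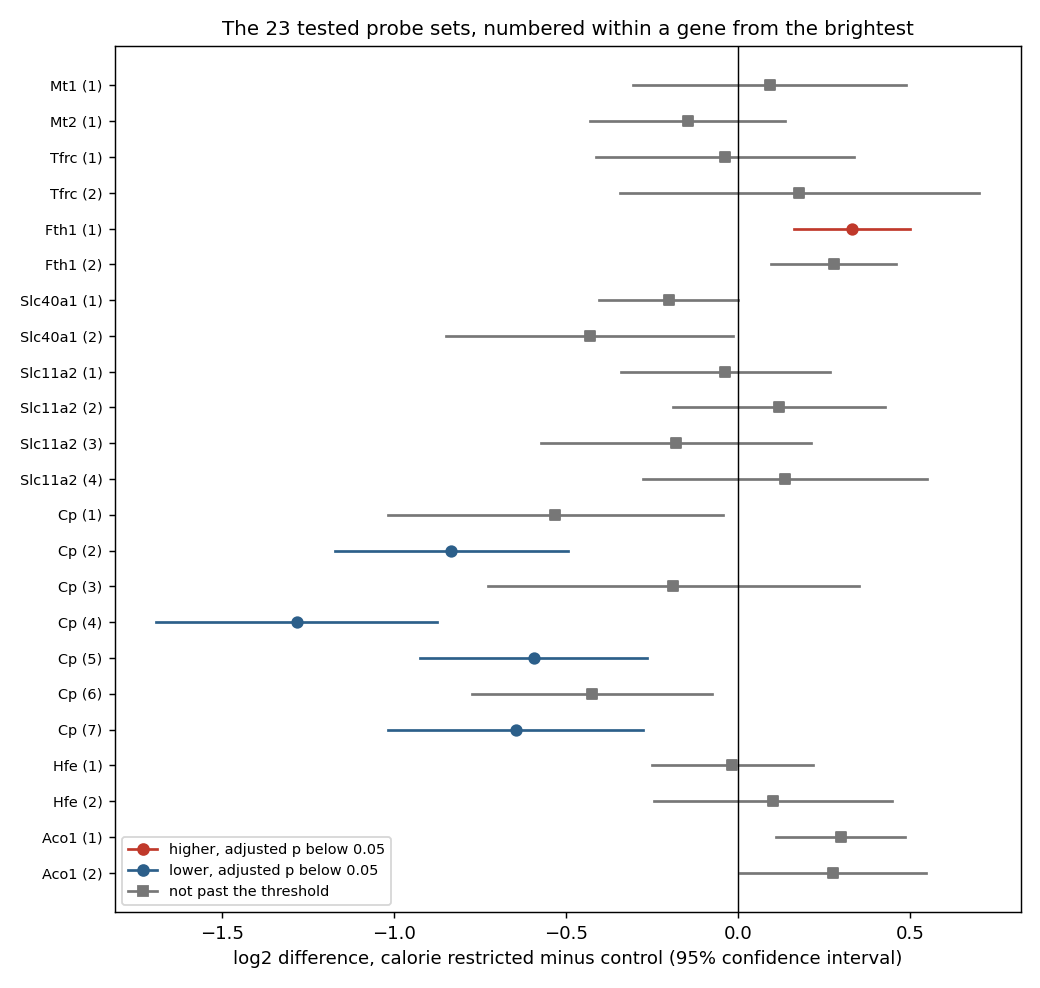
Log2 difference in signal, calorie restricted minus control, for the 23 tested probe sets with 95% confidence intervals from limma (n = 5 mice per diet). Probe sets of a gene are numbered by brightness. The 4 blue Cp points are called lower, 2 of them also after quantile normalization. The 1 red Fth1 point is called higher (but is -0.03 after quantile normalization), and the grey squares did not pass.

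Ceruloplasmin is a copper-carrying ferroxidase that oxidises the iron that ferroportin exports, so that transferrin can bind it. It was the member with the largest differences. All 7 tested Cp probe sets had a negative difference, from -0.19 to -1.28, and 4 were called. Cp probe set 4 gave 533, 658, 666, 639.5 and 735 signal units in calorie-restricted kidneys, against 910.1, 1989, 1460.3, 2024 and 1756 in control kidneys. Every calorie-restricted mouse lay below every control, and control replicate 1 was the lowest control. The means were 646 ± 72.8 in calorie-restricted and 1628 ± 460.1 in control kidney (SD), a log2 difference of -1.28 ± 0.19 (adjusted p = 0.0114). This call held with each of the 10 arrays left out in turn.

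Cp probe set 2 gave 1646, 1466, 1460.0, 1474 and 1600.0 signal units in calorie-restricted kidneys, against 1716, 2707, 2820.3, 3322 and 3439.6 in control kidneys. The groups were again apart, narrowly at control replicate 1, and the calorie-restricted mice spanned a small range. The log2 difference was -0.83 ± 0.16 (adjusted p = 0.0181). Without calorie-restricted replicate 2 it was -0.82 (adjusted p = 0.0501) and without control replicate 2 it was -0.84 (0.0503). The other called Cp probe sets, 5 and 7, differed by -0.59 ± 0.15 (adjusted p = 0.0391) and -0.65 ± 0.17 (0.0436). With 1 array left out these calls held in 3 and 1 of 10 fits. Leaving out calorie-restricted replicate 4 (-0.49), replicate 5 (-0.64) or control replicate 1 (-0.67) kept the call of probe set 5, and leaving out any other array lost it, at -0.49 to -0.64. The call of probe set 7 held only without calorie-restricted replicate 5 (-0.75) and was lost without any other array, at -0.57 to -0.73. Probe set 2 is of a type, x_at, whose probes can also bind other transcripts. After quantile normalization probe sets 4 (-1.24, adjusted p = 0.0194) and 2 (-0.83, 0.0297) were still called. Probe sets 5 (-0.54, 0.0626) and 7 (-0.61, 0.0583) were not. Of the 7 probe sets 2 were called without the intensity trend and 1 with the replicate number as a block.

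The probe sets of Cp ranked the mice differently. The brightest gave 4405, 4313, 4479.8, 2462 and 3064 signal units in calorie-restricted kidneys, against 3113, 4671, 5309, 6807 and 7728 in control kidneys. Here calorie-restricted replicates 4 and 5 were below every control, while replicates 1, 2 and 3 lay between the lowest control and the others. The log2 difference was -0.53 ± 0.23 and did not pass (adjusted p = 0.156). It passed without control replicate 1, at -0.72 (0.0458). Probe set 3 overlapped most, at 1325 to 2445 units in calorie-restricted and 1278 to 3462 in control kidneys, with a difference of -0.19 ± 0.25 (adjusted p = 0.668). Probe set 6 differed by -0.43 ± 0.16 (0.119). The dim Cp probe set, which was not tested, averaged 40.9 ± 14.1 units in calorie-restricted and 67.8 ± 17.6 in control kidney. Of the 8 Cp probe sets 6, among them all 4 that were called, are annotated with the same source sequence.

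**Figure D2:**
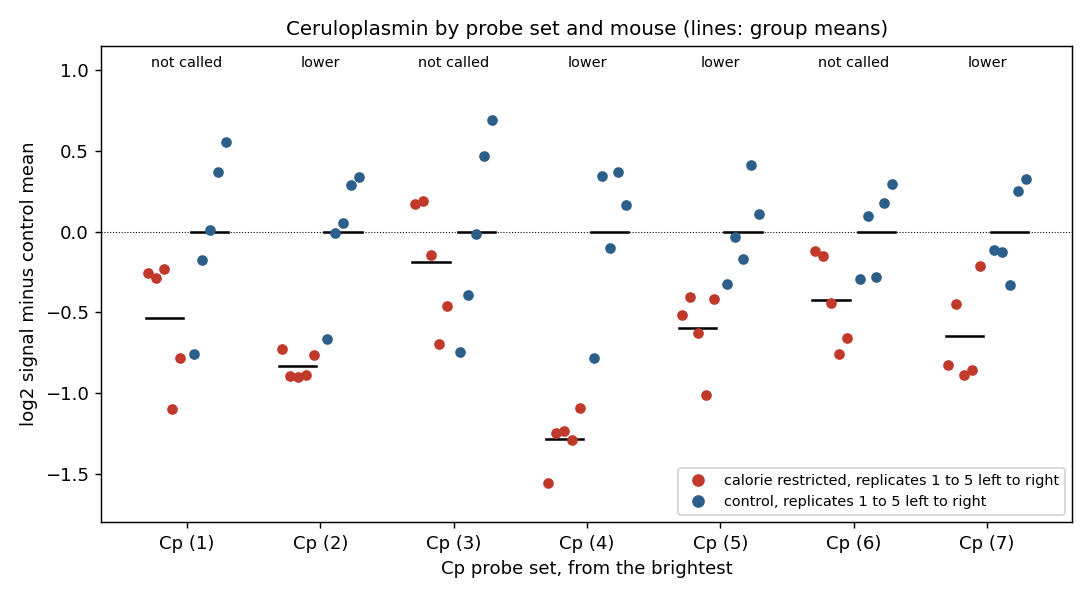
Log2 signal of the 7 tested Cp probe sets on each array, relative to the mean of the 5 controls, in order of brightness. Red points are calorie-restricted and blue points control mice, and lines are group means. In probe sets 2, 4 and 5 the diets do not overlap, while in probe sets 1, 3 and 6 calorie-restricted replicates 1 and 2 lie among the controls.

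The 3'/5' ratio also differed between the diets, and its part in these values was not tested beyond the fits that follow. In replicates 4 and 5 of each diet alone, whose ratios were alike, 5 of the 7 tested Cp probe sets were called lower, among 198 of all 22519 tested probe sets, and the differences ran from -0.82 to -1.46. These were Cp probe sets 1, 2, 3, 4 and 6, while probe sets 5 (-0.97, adjusted p = 0.0899) and 7 (-0.82, 0.165), which were called over all arrays, did not pass. In probe sets 1, 3 and 6, which were not called over all arrays, control replicates 4 and 5 were the highest controls. Calorie-restricted replicates 4 and 5 were there the lowest of their diet, so this fit set extreme mice against each other. With the ratio in the model 0 of 7 were called, although all 7 remained negative (-0.68 to -1.26, smallest adjusted p = 0.0856). With calorie-restricted replicates 4 and 5 set against all 5 controls 0 of 7 were called (-0.53 to -1.19, smallest adjusted p = 0.231). The last pair of limma fits called 9 and 1 of all 22519 tested probe sets, so few genes of any kind passed in them. At an unadjusted p under 0.05 they hold 7 and 6 of the 7 Cp probe sets, most of which share a source sequence, where the share of all tested probe sets was 13.3% with the ratio in the model and 10.7% with calorie-restricted replicates 4 and 5 only.

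Macrophages and liver also make ceruloplasmin. Of all genes 3.02% were called lower and 3.08% higher in the deposited values. Of 10 tested macrophage markers 5 were called lower, or 3 after quantile normalization. The summed signal of the 10 was 15372 to 24989.9 in calorie-restricted and 21236 to 37048 in control kidney. Of 4 liver markers 1, Alb, was called higher, and all 4 had a positive difference, with a median of 1.03: Alb 1.53, Apoa1 1.37, Hamp 0.68 and Ttr 0.13. Their summed signal, most of it Ttr, was 10434 to 13446 in calorie-restricted and 7930.4 to 13589 in control kidney. None of these markers was at 0, and their part in the difference of Cp was not tested.

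Ferritin heavy chain is the subunit that oxidises iron for storage. Its brightest probe set gave 34502, 38298, 33509.5, 32455 and 28774 signal units in calorie-restricted kidneys, against 24031, 27239, 27030.3, 26385 and 28184 in control kidneys. The groups did not overlap, with calorie-restricted replicate 5 just above the highest control. The means were 33508 ± 3444 in calorie-restricted and 26574 ± 1561 in control kidney (SD), a log2 difference of 0.33 ± 0.079 (adjusted p = 0.0321), which turned to -0.03 after quantile normalization (0.770). The other Fth1 probe set differed by 0.28 ± 0.084 (adjusted p = 0.0630), or -0.04 once quantile normalized.

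Among the brightest probe sets on these arrays a rise of this size was common. Of 307 tested probe sets with a mean log2 signal of at least 14, 97.1% had a positive difference, their median difference was 0.285 and 50.2% were called higher. The Fth1 call was also lost when calorie-restricted replicate 1, 2 or 3 (0.32, 0.28 and 0.33) was left out, and likewise control replicate 2, 3 or 4 (0.34, 0.34 and 0.33), with adjusted p between 0.0610 and 0.0762. It was 0.16 in replicates 4 and 5 alone (adjusted p = 0.489) and 0.20 with the 3'/5' ratio in the model (0.374). Red cells also hold ferritin mRNA, and the summed signal of 4 red cell markers was 2499 to 3926 in calorie-restricted and 1639 to 2204 in control kidney. Of these markers 1, the anion exchanger Slc4a1, was called higher (0 after quantile normalization by limma), where 3.08% of all genes were. None of these markers was at 0, and their part in the Fth1 difference was not tested.

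Aco1 encodes the cytosolic aconitase that becomes iron regulatory protein 1 when it loses its iron-sulphur cluster. Its brightest probe set gave 20005, 18460.0, 17132, 15197 and 15789 signal units in calorie-restricted kidneys, against 14743, 15237, 13969, 13783 and 12528 in control kidneys. Like Cp probe set 2, it is of the x_at type, whose probes can also bind other transcripts. Only calorie-restricted replicate 4 lay within the control range. The log2 difference was 0.30 ± 0.088 (adjusted p = 0.0580) and 0.09 after quantile normalization (0.497). It passed without calorie-restricted replicate 4 (0.34, adjusted p = 0.0342) or 5 (0.33, 0.0386). The other tested Aco1 probe set differed by 0.28 ± 0.13 (adjusted p = 0.184), and by 0.24 after quantile normalization (0.240). A further, dim one averaged 76.0 ± 21.9 units in calorie-restricted and 64.8 ± 30.9 in control kidney.

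**Figure D3:**
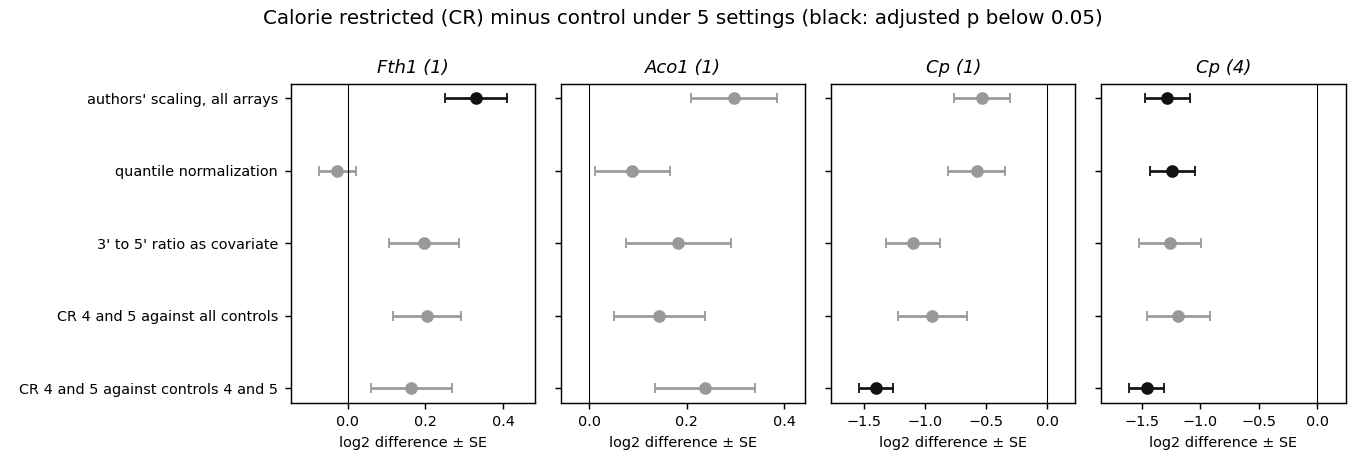
Log2 difference ± SE, calorie restricted (CR) minus control, of the brightest Fth1, Aco1 and Cp probe sets and of Cp probe set 4 under 5 settings, with calls at an adjusted p below 0.05 in black. Fth1 is 0.33 as deposited and -0.03 after quantile normalization, while Cp probe set 4 is negative, at -1.19 to -1.46, in each of the 5.

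Ferroportin, the product of Slc40a1, is the exporter that hepcidin removes from the cell surface. Its brightest probe set gave 2721, 2474, 2709.9, 2498 and 2342 signal units in calorie-restricted kidneys, against 2613, 3174, 2832, 3315 and 2765 in control kidneys. Calorie-restricted replicates 2, 4 and 5 lay below every control and the other two within the control range. The log2 difference was -0.20 ± 0.094 (adjusted p = 0.190). The second probe set gave 314, 361, 357, 612 and 513 units in calorie-restricted kidneys, against 589.5, 770.1, 561, 451 and 493 in control kidneys, a difference of -0.43 ± 0.19 (0.178). There replicates 1, 2 and 3 were below every control, so the mice that were low differed between the probe sets. Neither passed. The second probe set turned to 0.12 with the 3'/5' ratio in the model (adjusted p = 0.795) and to 0.25 in replicates 4 and 5 alone (0.538).

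The receptor Tfrc brings transferrin-bound iron into cells. Its brightest probe set gave 2237, 1706, 1810.1, 2168 and 2219.9 signal units in calorie-restricted kidneys, against 1969, 2472, 3105, 1477 and 1699 in control kidneys. The calorie-restricted mice lay inside the control range, which was wide. The log2 difference was -0.04 ± 0.17, with a 95% confidence interval of -0.41 to 0.34 (adjusted p = 0.914). In replicates 4 and 5 alone it was 0.47 (0.148), and control replicates 4 and 5 were the lowest controls. The second tested probe set differed by 0.18 ± 0.24 (0.680).

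Tfrc is also one of the genes for which the array carries control probe sets along the transcript. At the 3' end these averaged 96.1 ± 13.4 units in calorie-restricted and 89.5 ± 24.5 in control kidney. At the 5' end the means were 24.6 ± 11.7 in calorie-restricted and 24.9 ± 13.5 in control kidney, and in the middle they were 7.49 ± 2.84 in calorie-restricted and 5.60 ± 1.81 in control kidney. All 3 were dim, and their difference between the diets did not pass an exact permutation test (unadjusted p = 0.500, 0.873 and 0.310). On the log2 scale the 3'/5' ratio of Tfrc was 2.22 ± 1.27 in calorie-restricted and 1.98 ± 0.49 in control kidney (exact permutation p = 0.881). Calorie-restricted replicate 2 stood at 4.45, and the difference between the diets was 0.23 with it and -0.33 without it. The dim Tfrc probe set that was not tested averaged 38.1 ± 24.3 units in calorie-restricted and 30.4 ± 18.8 in control kidney.

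Slc11a2 encodes DMT1, the transporter that carries ferrous iron out of endosomes and across the apical membrane. Its brightest probe set gave 672, 654, 598, 684 and 816 signal units in calorie-restricted kidneys, against 552, 861, 824, 601 and 711 in control kidneys, with the calorie-restricted mice inside the control range. The log2 difference was -0.04 ± 0.14 (95% confidence interval -0.34 to 0.27, adjusted p = 0.892). The other 3 probe sets differed by -0.18, 0.12 and 0.14, and none passed.

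Hfe encodes the membrane protein that binds the transferrin receptors and, in liver, helps set hepcidin. Its brightest probe set gave 1202, 1227, 1065, 1303 and 1217 signal units in calorie-restricted kidneys, against 1030.4, 1137, 1391, 1212 and 1337 in control kidneys. All calorie-restricted mice lay within the control range, and the log2 difference was -0.02 ± 0.11 (95% confidence interval -0.25 to 0.22, adjusted p = 0.940). The second probe set differed by 0.10 ± 0.16 (0.730).

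**Figure D4:**
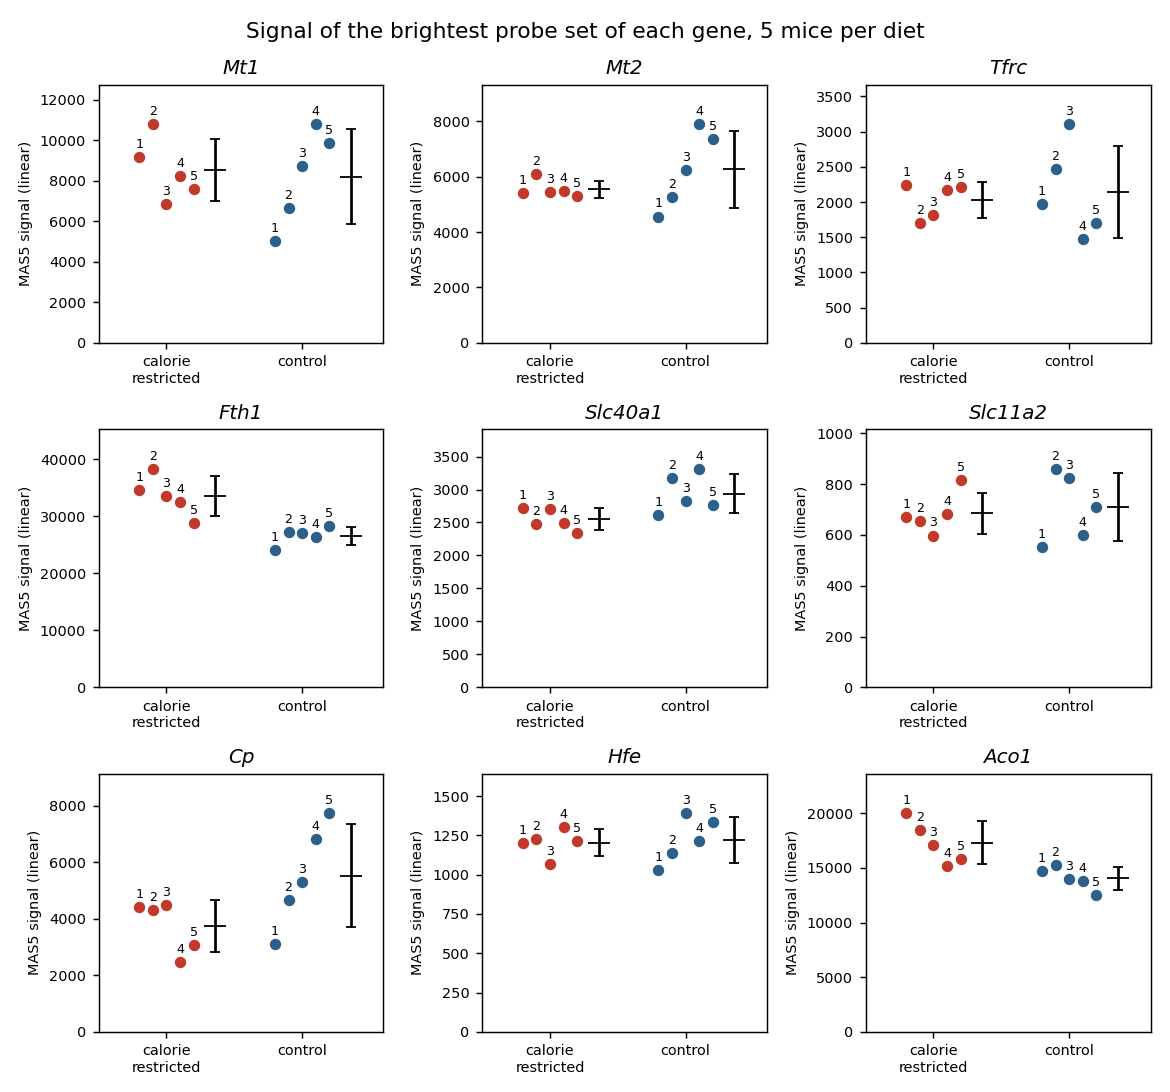
MAS5 signal of the brightest probe set of each of the 9 genes in 5 calorie-restricted (left) and 5 control (right) mice, with replicate numbers beside the points and the mean ± SD in black. The diets do not overlap for Fth1 alone among these 9 probe sets. The SD is larger in control mice for 7 of the 9 genes and larger in calorie-restricted mice for Fth1 and Aco1.

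Neither metallothionein gene passed. Mt1 gave 9173, 10789.8, 6859.5, 8238 and 7581 signal units in calorie-restricted kidneys, against 5027, 6637, 8726, 10782 and 9860.2 in control kidneys. Its log2 difference was 0.09 ± 0.19 (95% confidence interval -0.31 to 0.49, adjusted p = 0.791), and after quantile normalization it was -0.03. Calorie-restricted replicate 2 and control replicate 4 were highest and about equal, and the groups overlapped. Mt2 gave 5399.7, 6086, 5455, 5495 and 5299.8 units in calorie-restricted kidneys, against 4559.8, 5278, 6230.5, 7891 and 7360.0 in control kidneys. All 5 calorie-restricted mice lay inside the control range. The Mt2 difference was -0.15 ± 0.13 (95% confidence interval -0.43 to 0.14, adjusted p = 0.508).

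The calorie-restricted mice were close together for Mt2, with an SD of 310.1 units in calorie-restricted and 1389.7 in control kidney. Whether the spreads differ was not tested. In both genes control replicates 4 and 5 were the highest controls and replicates 1 and 2 the lowest. Against controls 4 and 5, calorie-restricted replicates 4 and 5 were lower by a log2 difference of -0.38 for Mt1 (adjusted p = 0.154) and -0.50 for Mt2 (0.0812). A second, dim Mt1 probe set averaged 83.4 ± 52.1 units in calorie-restricted and 118 ± 60.3 in control kidney. The Mt1 probe set used here ends in s_at, a type that can bind transcripts of related genes, so its signal may include other metallothioneins. What this adds to the correlation of Mt1 with Mt2, given next, was not tested.

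Across the 10 arrays Mt1 and Mt2 had a Pearson r of 0.820 (permutation p = 0.0034) and a Spearman rho of 0.818 (permutation p = 0.0052). This was the highest r of 36 pairs of member genes, and the adjusted p over the 36 was 0.104 for r and 0.0936 for rho, so neither passed. By rank the pair Slc40a1 and Cp was higher, with a rho of 0.842 (permutation p = 0.0036, adjusted 0.0936) and an r of 0.671 (permutation p = 0.0319, adjusted 0.191). Without the 2 arrays farthest from the median of Mt1, r was 0.719 for Mt1 and Mt2. For Slc40a1 and Cp, without the 2 arrays farthest from the median of Slc40a1, it was 0.701. These values take both diets together, so a difference between the diets enters r, rho and their p. With 5 mice per diet no r is given within a diet. With group means subtracted, r was 0.924 for Mt1 and Mt2 and 0.486 for Slc40a1 and Cp. On this same measure, the genes most like Mt1 over the 10 arrays were the keratin Krt7 (r = 0.939), Kazn (0.939), the sphingosine kinase Sphk1 (0.931) and Cuedc1 (0.929). Those most like Tfrc were Tmem168 (r = 0.943), Isoc1 (0.926), the phosphoglucomutase Pgm1 (0.922) and Tmem260 (0.893). Without the subtraction r was 0.921, 0.405, 0.748 and 0.804 with Mt1, in the order named. With Tfrc it was 0.805, 0.742, 0.598 and 0.854. The ranking with group means subtracted covers 12196 genes over 10 arrays. All these values share scaling and RNA quality, and are a description.

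**Figure D5:**
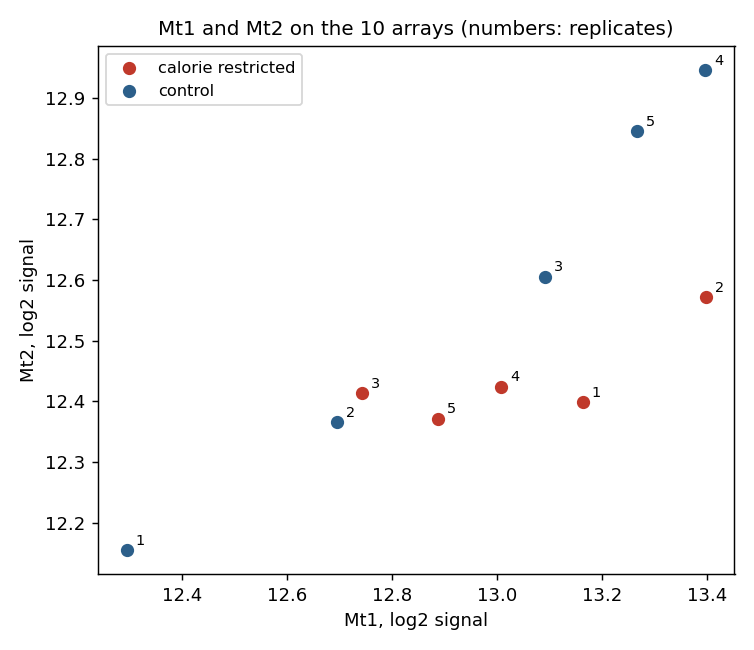
Log2 signal of Mt2 against that of Mt1 on the 10 arrays, with replicate numbers. Control replicate 1 (blue) is lowest in both genes and control replicates 4 and 5 are highest in Mt2, with the calorie-restricted mice (red) between them in Mt2.

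Other genes of iron and heme handling were taken from a list of 50, of which 37 were tested. Of these 3 were called lower and 1 higher, which is 10.8% against 6.1% of all genes, and their median difference was -0.094. Flvcr1, a transporter known for heme export, gave 565, 698, 676, 795 and 750.2 signal units in calorie-restricted kidneys, against 821, 1649, 1045, 1468 and 1417 in control kidneys. The groups did not overlap, and the log2 difference was -0.84 ± 0.18 (adjusted p = 0.0214). The other tested Flvcr1 probe set had a difference above 0. Ncoa4, the receptor that delivers ferritin to lysosomes for breakdown, gave 2804, 3097, 2610.3, 3184 and 3128 units in calorie-restricted kidneys, against 3405, 5013, 4372, 3466 and 4346 in control kidneys. The diets were apart here too, with a difference of -0.46 ± 0.12 (0.0358) and the same sign in the other tested probe set.

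The metalloreductase Steap4 averaged 163 ± 83.0 units in calorie-restricted and 359.6 ± 159 in control kidney, a log2 difference of -1.14 ± 0.32 (adjusted p = 0.0499). Tmprss6, a protease that in liver lowers hepcidin, averaged 311 ± 39.0 units in calorie-restricted and 197 ± 53.0 in control kidney, a difference of 0.70 ± 0.19 (0.04995). Both lie at the threshold, and neither was called with quantile normalization (adjusted p = 0.0583 and 0.0563). The second iron regulatory protein, Ireb2, differed by -0.21 ± 0.11 (0.238), hepcidin, Hamp, by 0.68 ± 0.24 (0.0919) and heme oxygenase 1, Hmox1, by -0.18 ± 0.33 (0.773), and none of the 3 passed. Lipocalin 2, Lcn2, which binds iron-carrying siderophores and is a marker of tubule injury, differed by -0.73 ± 0.30 and did not pass either (0.149).

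Of 34 genes of zinc and copper handling 27 were tested, 2 were called higher and 1 lower, which is 11.1% against 6.1% of all genes, and their median difference was 0.0081. The zinc transporter Slc30a5, which loads zinc into the secretory pathway, gave 1361, 1383, 1547, 1533 and 1694 signal units in calorie-restricted kidneys, against 2039, 2162, 1829, 1805 and 1878 in control kidneys. The groups did not overlap, and the log2 difference was -0.37 ± 0.098 (adjusted p = 0.0426). The zinc importer Slc39a3 averaged 639 ± 89.8 units in calorie-restricted and 446 ± 80.4 in control kidney, a difference of 0.53 ± 0.15 (0.0486). The copper and zinc superoxide dismutase Sod1 averaged 23379 ± 1906 units in calorie-restricted and 19493 ± 697 in control kidney, a difference of 0.26 ± 0.071 (0.0471), which was -0.0026 after quantile normalization. Of 3 other tested Sod1 probe sets 1 had the same sign. Neither Slc30a5 nor Slc39a3 was called with quantile normalization (-0.33, adjusted p = 0.0640, and 0.58, 0.0506). Mtf1, the metal-sensing factor of the metallothionein genes, differed by 0.41 ± 0.20 and did not pass (0.203). Mt3 and Mt4 were too dim to be tested.

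For the 7 called genes of these lists, 0 limma calls remained with the 3'/5' ratio in the model or when calorie-restricted replicates 4 and 5 were set against all 5 controls. In replicates 4 and 5 alone Flvcr1 was still called lower, at -0.90 (adjusted p = 0.0291). With the ratio in the model, a fit that called 9 of all 22519 tested probe sets, the differences were -0.74 for Flvcr1, -0.33 for Ncoa4, -0.89 for Steap4, 0.58 for Tmprss6, -0.20 for Slc30a5, 0.43 for Slc39a3 and 0.22 for Sod1. Leaving out any of calorie-restricted replicates 1, 2 and 3 lost both the Ncoa4 and the Flvcr1 call, as did control replicate 2. Control replicates 3 and 5 also decided Ncoa4 (-0.39 to -0.48 in these fits) and control replicate 4 decided Flvcr1 (-0.74 to -0.84). The other calls held in few of the 10 fits with 1 array left out. Slc30a5 passed only without calorie-restricted replicate 4 (-0.38) or 5 (-0.41), and Sod1 only without calorie-restricted replicate 5 (0.30) or control replicate 1 (0.28). Slc39a3 and Tmprss6 each passed only without calorie-restricted replicate 4 (0.57 and 0.77) or 5 (0.58 and 0.72) or control replicate 1 (0.59 and 0.79). Steap4 passed only without calorie-restricted replicate 5 (-1.40) or control replicate 3 (-1.36).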

How the data were processed

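Total RNA was extracted with Trizol and 5 ug was labelled as biotinylated cRNA, per the labels' protocols. The deposited values are MAS5 signals, which the authors computed as a linear intensity per probe set; the submitters' processing notes name Affymetrix Expression Console without a version. These intensity values share one trimmed mean (500.003) on every array while their medians range over 114.7 to 136, so a difference between arrays that varies with brightness is left in them. The number of arrays limits the precision.

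Signals were floored at 1 and converted to log2. Affymetrix control probe sets did not enter the fit. Probe sets with a mean log2 signal at or above the median, 6.81, were tested, 22519 in all. Diets were compared with limma 3.58.1 in R 4.3.3 (lmFit, eBayes with an intensity trend, 2-sided), adjusted by Benjamini-Hochberg over all tested probe sets, threshold 0.05, and the fit was checked on simulated data. A gene stands by its brightest tested probe set. Single ratios were tested with 2-sided exact permutation tests, for which the smallest p with 5 against 5 is 0.00794, and correlations with 100000 permutations. Named genes were all members, the list genes past the threshold (up to 6 per list) and the 4 genes most like Mt1 and Tfrc by Pearson r; Ireb2, Hamp, Hmox1, Lcn2 and Mtf1, which did not pass, were named after their values were seen, for their roles. The members and lists were chosen with earlier results of these data known. Replicates are separate mice, per the labels. Genes were named from the platform annotation; promoter windows are from RefSeq. Alternatives were filters, quantile normalization, log2(signal + 50), no trend, the replicate number as a block, the 3'/5' ratio as a covariate, arrays left out, replicates 4 and 5 alone, and averaging the probe sets of a gene. The comparison of calorie-restricted replicates 4 and 5 with all controls and the unfiltered fit for control probe sets were added after seeing the data. So were the marker lists after quantile normalization, the counts at an unadjusted p in other fits and the count of SDs. The classes of probe sets with a log2 signal of 12 to 14 and of at least 14 were also added then.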

Additional observations from a re-analysis of the deposited data

Results flagged for a closer look

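Of 18 groups of 5 arrays (9 genes by 2 diets) 1 held a sample far from the others. For Mt2, calorie-restricted replicate 2 had a log2 signal of 12.57, against 12.37 to 12.42 in the other 4 calorie-restricted kidneys, a gap of 0.738 of the whole range. The same array was the highest calorie-restricted array for Mt1 and Fth1. Chance flags about 1 in 20 groups of this kind.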

How the results depend on the processing

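At the authors' scaling 5 member probe sets, 1371 of all tested probe sets, 4 iron genes and 3 zinc and copper genes were called. In the same order the counts were 2, 287, 1 and 0 with no filter, 2, 750, 2 and 0 with quantile normalization, 2, 243, 0 and 0 without the intensity trend, 0, 9, 0 and 0 with the 3'/5' ratio in the model, 5, 198, 2 and 0 in replicates 4 and 5 alone, and 0, 1, 0 and 0 with calorie-restricted replicates 4 and 5 set against all 5 controls. With the replicate number as a block they were 1, 127, 1 and 0. Same-numbered samples correlated at -0.14 to -0.087 after group means were subtracted. Replicates 4 and 5 had the lowest Gapdh and Actb 3'/5' ratios among calorie-restricted mice and the highest among controls. These correlations therefore cannot show whether same-numbered samples were processed together, which was not tested. A stricter filter gave 7, 1554, 3 and 3, and log2(signal + 50) gave 5, 1445, 3 and 3. Leaving out 1 array gave 1 to 7 member calls, 125 to 2481 of all probe sets, 0 to 5 iron genes and 0 to 3 zinc and copper genes; members fell to 1 when replicate 2 of either diet was left out, to 2 without replicate 1 or 3 of the calorie-restricted mice or 3 or 4 of the controls, and to 3 without control 5, and were 7 without calorie-restricted replicate 5. Fewer arrays or fewer residual degrees of freedom enter the fits on part of the arrays, with the block and with the ratio. The cause of the lost calls was not tested in any of these fits.

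Mt2, Slc40a1, Cp and Aco1, each by its brightest probe set, kept their direction in all 20 alternatives; the second Slc40a1 probe set did not, turning to 0.12 with the ratio in the model and 0.25 in replicates 4 and 5 alone. Fth1 turned to -0.03 with quantile normalization only. Mt1 turned to -0.03 with quantile normalization, -0.25 with the ratio in the model, -0.38 in replicates 4 and 5 alone, 0.00 with calorie-restricted replicates 4 and 5 set against all 5 controls and -0.24 as the mean of its probe sets, and was -0.07 to 0.20 with 1 array left out. Tfrc turned to 0.23 with the ratio, 0.47 in replicates 4 and 5 alone, 0.08 with calorie-restricted replicates 4 and 5 set against all 5 controls and 0.16 as the mean, and was -0.16 to 0.11 with 1 array left out. Slc11a2 turned to 0.02, 0.14, 0.19, 0.09 and 0.01 with quantile normalization, the ratio, replicates 4 and 5 alone, calorie-restricted replicates 4 and 5 set against all 5 controls and the mean, and was -0.12 to 0.04 with 1 array left out. Hfe turned to 0.03 with quantile normalization, 0.05 with calorie-restricted replicates 4 and 5 set against all 5 controls and 0.04 as the mean, and was -0.08 to 0.03 with 1 array left out. None of these 4 genes passed in any of these fits. The difference in the Gapdh and Actb 3'/5' ratio was 0.625, or 0.477 after quantile normalization (exact permutation p = 0.0635), and 0.491 to 0.753 with 1 array left out, where it missed 0.05 without calorie-restricted or control replicate 1, 2 or 3. That of Tfrc ran between -0.327 and 0.453. The Tfrc control probe sets lie below the filter, so keeping them in the fit was run only without a filter.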
